A study of Mus musculus with 15 samples.

Results

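Cells carrying RUNX1-ER without its ligand were set against empty-vector cells that also had no ligand. Both are NIH3T3 cells, an immortalised line of mouse embryonic fibroblasts, and both had been retrovirally transduced with pBabe-puro, a vector that carries puromycin resistance. Members were taken by their titles, the uninduced RUNX1-ER samples (2 arrays) and the vector samples without tamoxifen (2 arrays), 4 of the 15 Affymetrix arrays in all. RUNX1-ER is an inducible form of human RUNX1, whose activity depends on 4-hydroxytamoxifen (4-OHT), and the labels do not say which part of the oestrogen receptor, or of which species, it holds. Going by the labels, the uninduced cultures had ethanol (0.2%) alone for 24 h after 7 days of growth to confluence. The groups used beside them are induced RUNX1-ER and the empty vector, both with 4-OHT (2 arrays each), and a line that expressed mouse Runx1 constitutively (2 arrays). Lines that expressed mouse Runx2 and mouse Runx3 (2 arrays each) and human RUNX1 (1 array) entered the fit and the choice of probe sets, and their levels of Esr1 and the Id genes are shown. The labels state neither whether a line was 1 clone or a pool, nor whether the constitutive lines had ethanol or 4-OHT, and they give the 4-OHT concentration as 0.1 mM. Titles number the arrays as biological replicates, but whether each came from its own culture is not stated, and the p-values thus cover only the variation among these arrays, part of which may be technical.

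Runx proteins are transcription factors that bind DNA through the Runt domain together with the partner Cbfb, and they activate some genes and repress others in blood, bone and connective tissue. A transcription factor joined to the hormone-binding region of the oestrogen receptor is held inactive by chaperones until a ligand such as 4-OHT releases it. The uninduced cells are the state from which induction is measured, and the comparison asks what the fusion line differs in before any ligand is given.

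Few genes separated the lines without ligand at the main setting. Of 18193 genes, each read on its brightest probe set, 8 passed the test (0.044% of genes, limma adjusted p under 0.05 by Benjamini-Hochberg). In uninduced RUNX1-ER cells 6 rose (0.033%) and 2 fell (0.011%) relative to vector cells. Those that rose were Esr1, Clba1, Vash2, Fnip2, Fam110b and Mvd, and those that fell were Phex and Id1. At an unadjusted p under 0.05 there were 1447 genes (7.95%), with 3.61% of all genes higher and 4.34% lower. The count depended on the arrays and the settings. It was 4 without uninduced replicate 1, 1 without uninduced replicate 2, 0 without vector replicate 1 (1239 genes at an unadjusted p under 0.05) and 3 without vector replicate 2. With each array centred on its own median, 14 genes were higher and 2 lower. Only the 4 compared arrays gave 0 (limma, 1437 genes at an unadjusted p under 0.05), an intensity trend in limma's prior gave 96 (63 higher and 33 lower), and the vector arrays with 4-OHT or all 4 vector arrays as the control gave 43 and 58. Differences are log2 values of uninduced RUNX1-ER minus vector unless stated otherwise, and the median over all genes was −0.019 with an SD over genes of 0.158.

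Replicate arrays of the uninduced cells differed with an SD over genes of 0.199 log2 units, those of the vector cells with 0.162, and the arrays' medians lay between 3.685 and 3.75. Uninduced replicate 1 correlated more closely with vector replicate 1 (r = 0.9964 across probe sets) than with its own replicate (r = 0.9945), while the closest array to uninduced replicate 2 was uninduced replicate 1. Of 12 fibroblast markers 9 lay above each array's 75th percentile on all 4 arrays, among them Col1a1, Col1a2 and Vim, while Lum and Fap lay below the median. None of the macrophage, epithelial, endothelial, adipocyte, skeletal muscle or lymphocyte markers lay above the 75th percentile on all 4 arrays. RNA was taken from whole cultures, so fewer cells with a transcript and less of it in each cell cannot be told apart.

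The gene with the largest difference among those that passed was Esr1, which encodes oestrogen receptor alpha, the receptor family that lends RUNX1-ER its ligand dependence. Its brightest probe set read 7.02 and 6.01 in uninduced RUNX1-ER cells, against 3.86 and 4.26 in vector cells. Both arrays of the fusion line were far above both vector arrays, although they were also further apart from each other than the vector arrays were. Esr1 rose by 2.45 (SE 0.249, limma adjusted p = 0.00271), a 5.48-fold difference with a 95% interval of 1.92 to 2.99 log2 units. The gene lies on chr10:4611989-5005633 (GRCm38.p6, as are all coordinates below). Its other 2 probe sets read close to 3 log2 units in both groups and differed by 0.09 and −0.10, neither past the test. In induced RUNX1-ER cells the brightest probe set read 5.92 and 5.74, and on the arrays of every line without the fusion it lay between 3.76 and 4.72. The probe set's reading therefore set all arrays of the fusion line apart from all others, with and without ligand, and whether it came from the construct or from the cell's own gene was not tested. The increase did not pass the test when vector replicate 1 was left out (adjusted p = 0.0918). Of 17 oestrogen receptor target genes measured, 0 passed the test in either direction (limma, 1 at an unadjusted p under 0.05 each way), and their median was −0.13.

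The inserted human RUNX1 was not visible through the mouse probe sets. Runx1, on its brightest probe set, read 4.88 and 4.67 in uninduced RUNX1-ER cells, against 4.56 and 4.75 in vector cells, and its 6 probe sets differed by −0.08 to 0.13, none past the test. The same brightest probe set read 9.21 in the line expressing mouse Runx1. Runx3, another family member, differed by −0.20 (adjusted p = 0.797) and Cbfb, the shared DNA-binding partner, by 0.04 (adjusted p = 0.947). Runx2 is not analysed here, since no probe set used carried that symbol. These probe sets therefore give no measure of how much fusion the cells held.

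**Figure D1:**
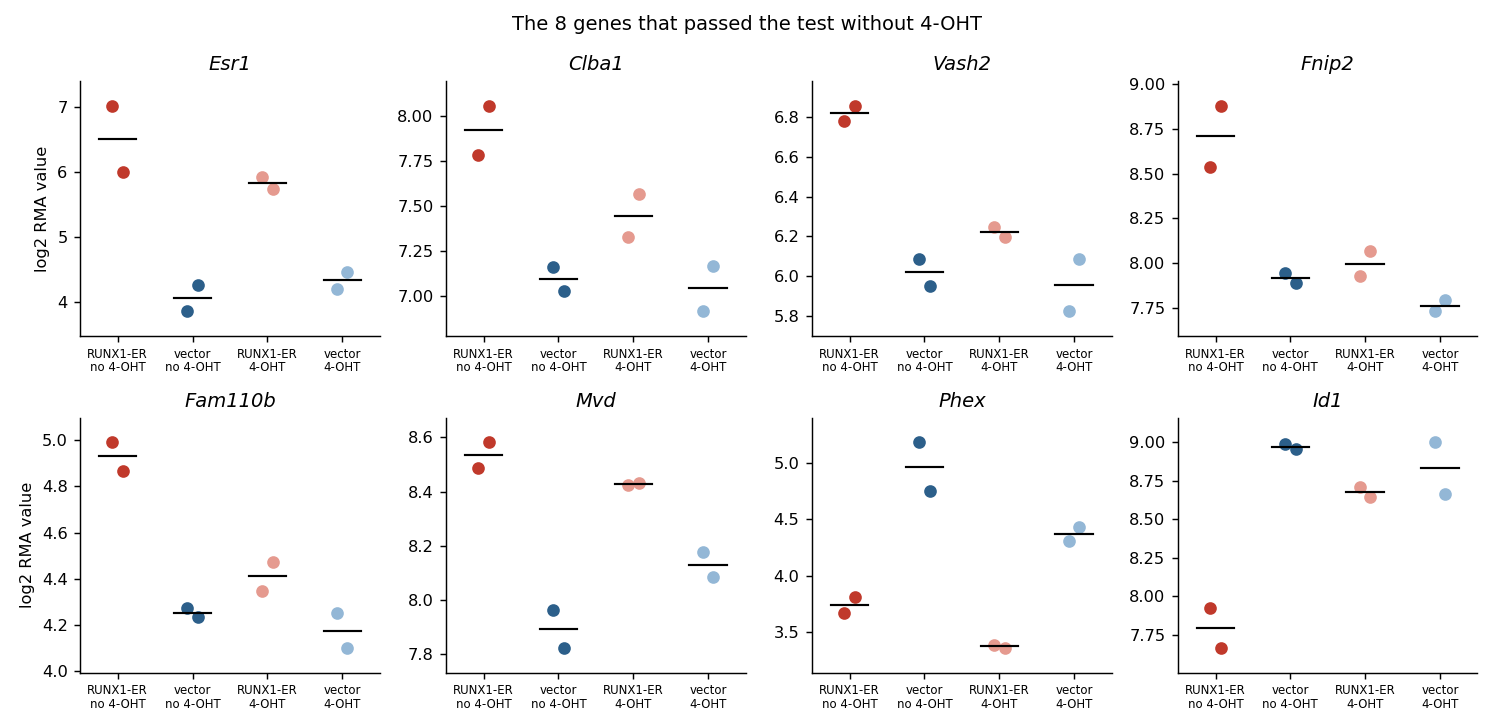
Log2 RMA level of the 8 genes that passed the test, 1 panel per gene, with uninduced RUNX1-ER left of vector; points are single arrays and horizontal lines are means of 2 arrays. In every panel both arrays of one group lie above both arrays of the other, and the 2 uninduced Esr1 values, 7.02 and 6.01, are the furthest apart.

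The other genes that rose moved by less than 2-fold. Vash2, a vasohibin and thus an enzyme that removes the terminal tyrosine of alpha-tubulin, read 6.78 and 6.86 in uninduced RUNX1-ER cells, against 6.09 and 5.95 in vector cells. It rose by 0.80 (SE 0.11, adjusted p = 0.0326) and lies on chr1:190947646-190979368. Fnip2, a partner of folliculin in nutrient signalling at the lysosome, read 8.54 and 8.88 in uninduced RUNX1-ER cells, against 7.95 and 7.89 in vector cells. Both uninduced arrays were above both vector arrays for these genes, with gaps wider than the distance between replicates. Fnip2 rose by 0.79 (SE 0.115, adjusted p = 0.0403) and lies on chr3:79455971-79568151. It passed the test without uninduced replicate 1 (adjusted p = 0.0246) but not without uninduced replicate 2 (0.311), vector replicate 1 (0.36) or vector replicate 2 (0.224).

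Clba1, named for a clathrin-binding box, read 7.78 and 8.06 in uninduced RUNX1-ER cells, against 7.16 and 7.03 in vector cells, and rose by 0.83 (SE 0.12, adjusted p = 0.0409). Its other probe set differed by 0.98 in the same direction. Of the genes that rose, Clba1 was thus read alike by both of its probe sets, and it lies on chr12:112808975-112816245. Fam110b, which encodes a protein found at centrosomes, read 4.99 and 4.87 in uninduced RUNX1-ER cells, against 4.27 and 4.23 in vector cells. It rose by 0.68 (SE 0.10, adjusted p = 0.0409), lies on chr4:5644009-5801101, and has a second probe set that differed by 0.03. Fam110b was dim in both groups, where RMA shrinks differences, and the second probe set did not share its difference. Clba1, Vash2, Fam110b and Mvd each missed the threshold when any single one of the 4 arrays was left out.

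Phex, a membrane-bound member of the neprilysin family of endopeptidases that is mutated in X-linked hypophosphataemia, had the larger fall. It read 3.67 and 3.81 in uninduced RUNX1-ER cells, against 5.19 and 4.75 in vector cells. The uninduced readings were near the median of the arrays, where RMA understates folds. Phex fell by 1.23 on the log2 scale (SE 0.16, adjusted p = 0.0238), lies on chrX:157162075-157415286, and its other probe set differed by −0.21. The call remained without vector replicate 2 (adjusted p = 0.0285) and was lost without any other of the 4 arrays (adjusted p from 0.0636 to 0.202). With the vector arrays that had 4-OHT as the control, Phex differed by −0.63 (adjusted p = 0.123).

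Id1 is the other gene that fell. Id proteins are helix-loop-helix proteins without a DNA-binding region, which bind and block basic helix-loop-helix factors, and their genes are classical targets of BMP signalling. Id1 read 7.92 and 7.66 in uninduced RUNX1-ER cells, against 8.99 and 8.96 in vector cells. Both uninduced arrays were a full log2 unit or more below the vector arrays, which were almost identical. Id1 fell by 1.18 (SE 0.12, adjusted p = 0.00271), 2.27-fold lower, and it lies on chr2:152736251-152737410. The call was lost without uninduced replicate 2 (adjusted p = 0.0829) and without vector replicate 1 (0.0918).

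On their brightest probe sets the other Id genes also read lower in uninduced RUNX1-ER cells but did not pass the test at the main setting. Id2 read 8.43 and 8.45 in uninduced RUNX1-ER cells, against 9.11 and 9.07 in vector cells, a difference of −0.65 (adjusted p = 0.0598). Id3 read 7.91 and 7.94 in uninduced RUNX1-ER cells, against 8.82 and 8.71 in vector cells, a difference of −0.84 (adjusted p = 0.0913). Replicates lay close together for both genes and the groups did not overlap. Id4, the dimmest, differed by −0.40 (adjusted p = 0.662), and its other probe sets differed by 0.06 each and did not share the decrease. The calls of Id2 and Id3 turned on the setting: each passed the test in 4 of 12 alternatives, with adjusted p from 0.00184 to 0.36 for Id2 and from 0.00232 to 0.405 for Id3. Of the 35 measured genes of the TGF-beta and BMP pathway, 1 fell (Id1) and 0 rose, with a median of −0.0296, and across all genes 23% had both uninduced arrays below both vector arrays.

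With ligand the line difference of Id1 was smaller, while Id2 and Id3 read lower in the fusion line as they did without it. Id1 read 8.71 and 8.65 in induced RUNX1-ER cells, against 9.0 and 8.66 in vector cells with 4-OHT, so that these groups overlapped and differed by −0.15 (adjusted p = 0.603). The line difference of Id1 with 4-OHT minus that without was 1.03 (SE 0.17, adjusted p = 0.0133). That call was lost in 5 of 8 fits without 1 array, those without uninduced replicate 2 (adjusted p = 0.0653), induced replicate 1 (0.0665) or 2 (0.0513) and vector replicate 1 (0.0762) or 2 (0.0606), and with only the compared arrays (0.0565). For Id2 the line difference with 4-OHT was −1.34 (adjusted p = 1.95e-05) and for Id3 it was −1.54 (adjusted p = 9.94e-05). With ligand, then, Id2 and Id3 passed the test and Id1 did not. The change of line difference with 4-OHT was −0.69 for Id2 (adjusted p = 0.0646) and −0.70 for Id3 (adjusted p = 0.222), past the test for neither. In the line expressing mouse Runx1, Id1 read 7.98 and 7.92, against 9.0 and 8.66 in vector cells with 4-OHT, and fell by 0.88 (adjusted p = 0.0015).

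**Figure D2:**
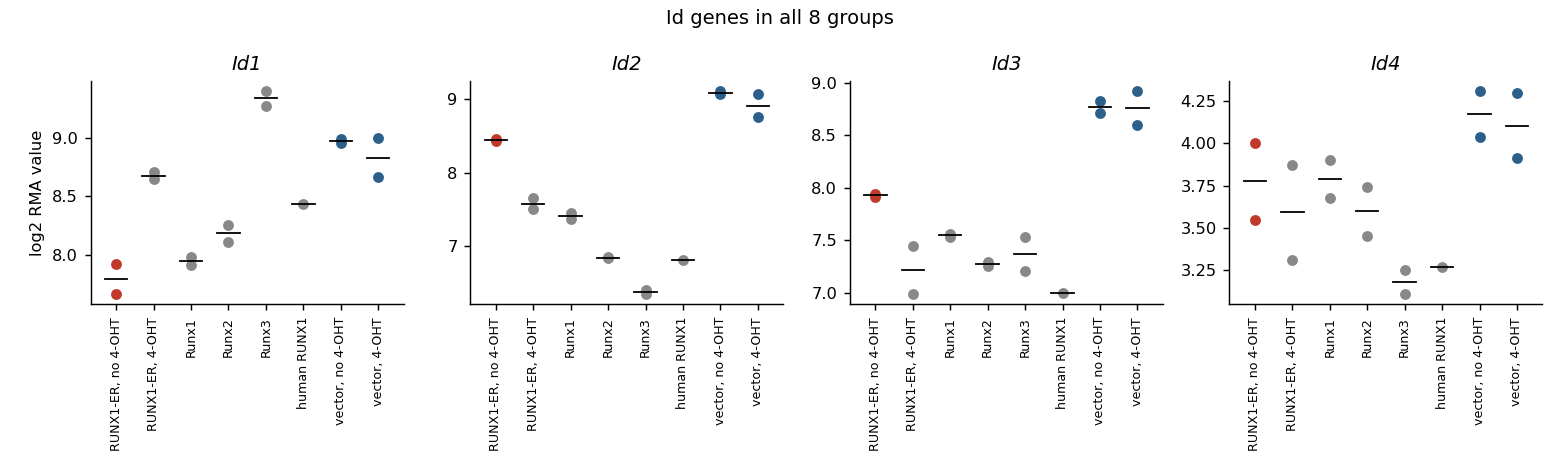
Log2 RMA level of Id1, Id2, Id3 and Id4 on single arrays of the groups named on the horizontal axis, with horizontal lines at group means. Id1 is lower in uninduced RUNX1-ER (7.92 and 7.66) than in vector (8.99 and 8.96) but at 8.71 and 8.65 in induced RUNX1-ER, while Id2 is at 7.65 and 7.5 and Id3 at 7.45 and 6.99 in induced RUNX1-ER.

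The remaining lower genes with the smallest p-values were Tcf7l1 and Taf7. Tcf7l1, a repressor of Wnt target genes, read 7.38 and 7.48 in uninduced RUNX1-ER cells, against 7.96 and 7.93 in vector cells, a difference of −0.52 (adjusted p = 0.0598). With 4-OHT the line difference was 0.58 in the other direction (adjusted p = 0.00169), and the change between these differences was 1.10 (adjusted p = 0.000771). Tcf7l1 thus read lower in the fusion line without ligand and higher in it with ligand. Taf7, a subunit of the general transcription factor TFIID, differed by −0.61 (adjusted p = 0.063). It was dim, with means of 3.88 in uninduced RUNX1-ER cells and 4.49 in vector cells. Its other probe sets differed by −0.59 and −0.01.

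Most genes of cholesterol synthesis read higher in uninduced RUNX1-ER cells, though only Mvd passed the test. The pathway makes isoprenoid units from acetyl-CoA through mevalonate, joins them to squalene, closes the rings to lanosterol and trims lanosterol to cholesterol. Of the 20 genes of the list analysed here, 1 rose (Mvd) and 0 fell. Their median was 0.317, against −0.019 over all genes, and 18 were above 0. In 15 of the 20 (75%) both uninduced arrays lay above both vector arrays, as they did for 15.6% of all genes. The list was chosen with earlier results of these data known, so these values are a description and not a test of the list. The mean level of the list was 8.98 and 8.92 in uninduced RUNX1-ER cells, against 8.68 and 8.65 in vector cells.

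Mvd, mevalonate diphosphate decarboxylase, makes isopentenyl diphosphate and read 8.49 and 8.58 in uninduced RUNX1-ER cells, against 7.96 and 7.82 in vector cells. It rose by 0.64 (SE 0.094, adjusted p = 0.0403), its other probe set differed by 0.43, and it lies on chr8:122433596-122443422. With the vector arrays that had 4-OHT as the control the difference of Mvd was 0.40 (adjusted p = 0.0988). On the brightest probe sets Mvd thus had the largest difference of the pathway. The size of that difference depended on which vector arrays Mvd was set against. Upstream of it, Hmgcs1, which makes HMG-CoA, differed by 0.36, Mvk by 0.31 and Pmvk by 0.37, the kinases of mevalonate and phosphomevalonate. Downstream, the isomerase Idi1 differed by 0.40, squalene synthase Fdft1 by 0.33 and squalene epoxidase Sqle by 0.38. None of these 6 passed the test.

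Lss, lanosterol synthase, closes the rings and came nearest to the threshold after Mvd. It read 8.92 and 9.05 in uninduced RUNX1-ER cells, against 8.47 and 8.47 in vector cells, a difference of 0.52 (SE 0.086, adjusted p = 0.063). Its dimmer probe sets differed by 0.72, more than either probe set of Mvd, and by 0.20. Among the enzymes that trim lanosterol, Msmo1 differed by 0.46, Hsd17b7 by 0.44, Nsdhl by 0.32, Cyp51 by 0.31 and Dhcr7 by 0.27. None of these 5 passed the test either. The lowest were those of Tm7sf2 (−0.05) and Ebp (−0.01), and Fdps, Ggps1, Lbr and Sc5d lay between 0.09 and 0.12 on their brightest probe sets. The probe sets of Sc5d disagreed, since its dimmer ones differed by 0.61 and 0.02. Genes of sterol regulation and fatty acid synthesis had a median of 0.0603, with 0 of 22 past the test (limma, 6 higher and 2 lower at an unadjusted p under 0.05).

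**Figure D3:**
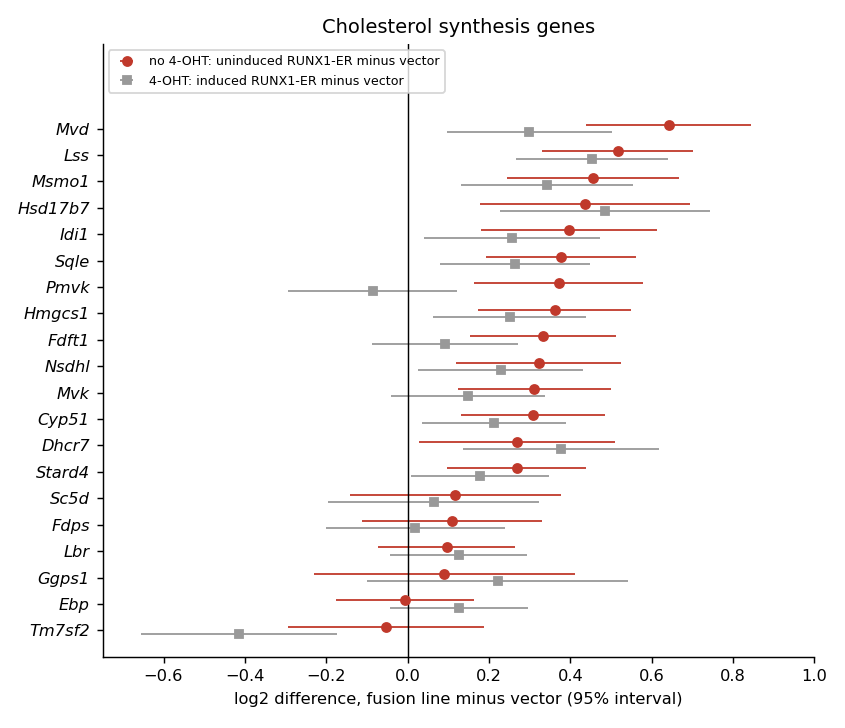
Log2 differences of the 20 measured cholesterol synthesis genes with 95% intervals of each difference; circles are uninduced RUNX1-ER minus vector, and squares are induced RUNX1-ER minus vector with 4-OHT. Most circles lie between 0.27 and 0.64, and 15 of the 20 circles lie to the right of the square of the same gene.

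With ligand the list's median was smaller. It was 0.217 in induced RUNX1-ER cells minus vector cells with 4-OHT, arrays that the comparison without ligand does not use, where 18 members were above 0 and the arrays separated upward for 15, against 28.5% of all genes. Lss rose there by 0.45 (adjusted p = 0.00981) and Hsd17b7, a reductase of the late pathway, by 0.49 (adjusted p = 0.0394). Of the 20 genes 0 passed the test of the change between the line differences with and without 4-OHT, so the smaller median is not shown to differ. The median was 0.0331 in the line expressing mouse Runx1 minus vector with 4-OHT, and on the single array with human RUNX1, set against vector with 4-OHT, 19 of 20 were below 0.

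The start regions of 3 of these genes are shown, those of Mvd, which passed the test, of Lss, which came nearest to it, and of Hmgcs1 at the entry of the pathway. Windows run from 250 bases before to 50 after the start in RefSeq (GRCm38.p6) and are written 5′ to 3′ on the strand of the gene. Capitals mark CCAAT or its reverse complement ATTGG, the box bound by NF-Y, and TCACNCCAC, one form of the sterol regulatory element, searched on both strands.
Mvd, minus strand of chr8:122443373-122443672: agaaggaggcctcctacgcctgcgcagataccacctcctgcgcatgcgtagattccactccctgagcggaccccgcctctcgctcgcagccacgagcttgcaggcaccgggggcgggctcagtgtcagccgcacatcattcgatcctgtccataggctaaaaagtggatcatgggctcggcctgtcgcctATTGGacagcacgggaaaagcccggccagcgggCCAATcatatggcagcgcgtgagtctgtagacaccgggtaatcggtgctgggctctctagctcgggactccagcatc
Lss, plus strand of chr10:76531355-76531654: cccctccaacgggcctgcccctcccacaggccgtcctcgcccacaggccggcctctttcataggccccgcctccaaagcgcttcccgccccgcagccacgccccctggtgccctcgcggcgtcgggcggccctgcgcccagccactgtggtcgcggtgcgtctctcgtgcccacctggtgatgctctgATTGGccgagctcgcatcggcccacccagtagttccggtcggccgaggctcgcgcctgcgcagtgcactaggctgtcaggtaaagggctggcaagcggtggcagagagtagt
Hmgcs1, plus strand of chr13:119690101-119690400: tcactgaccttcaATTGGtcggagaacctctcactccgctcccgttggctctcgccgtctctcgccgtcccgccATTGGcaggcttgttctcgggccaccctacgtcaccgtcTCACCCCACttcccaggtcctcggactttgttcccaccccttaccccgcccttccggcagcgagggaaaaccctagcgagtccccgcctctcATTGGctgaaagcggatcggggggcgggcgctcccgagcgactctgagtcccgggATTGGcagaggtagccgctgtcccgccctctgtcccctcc
A window was found for 16 of the 20 genes, and all 16 held CCAAT, against 41.1% of all 27025 genes with a window. Counted over windows, CCAAT was in 16 of 19 (84.2%), against 37.4% of all windows. TCACNCCAC was in 1 of the 16 genes (6.25%), the Hmgcs1 shown, against 1.44% of all genes with a window. The Runx motif, TGTGGT or TGCGGT on either strand, was in 3 of the 19 windows (15.8%), against 22.4% of all windows. A match of letters is a description of the window and not a bound site. Of the 8 genes that passed the test 6 had a window. The Runx motif was in 1 of these 6 (16.7%), against 25% of all genes with a window. Id1 was not among the windows.

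Of the 30 gene lists 4 held a gene that passed the test, each list 1 gene. These were cholesterol synthesis (Mvd), the TGF-beta and BMP pathway (Id1), bone and cartilage genes (Phex) and the list of Runx genes and partners, which included Esr1. List medians ran from −0.137 to 0.317, and after cholesterol synthesis the next highest was 0.0976, for the genes of unfolded protein and amino acid stress. Of the genes of mitosis 0 of 27 passed the test (limma, 0 higher and 5 lower at an unadjusted p under 0.05). Yet all 27 were below 0, against 56.1% of all genes, with a median of −0.107. In 20 of the 27 (74.1%) both uninduced arrays lay below both vector arrays, as they did for 23% of all genes. The mean level of the mitosis list was 8.08 and 8.02 in uninduced RUNX1-ER cells, against 8.17 and 8.20 in vector cells. Its part in the other differences was not tested. Interferon response genes had the lowest median (−0.137), with 0 of 32 past the test (limma, 2 each way at an unadjusted p under 0.05). Known Runx targets of bone and blood had 0 of 21 past the test and a median of −0.0208, with 1 higher and 0 lower at an unadjusted p under 0.05.

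**Figure D4:**
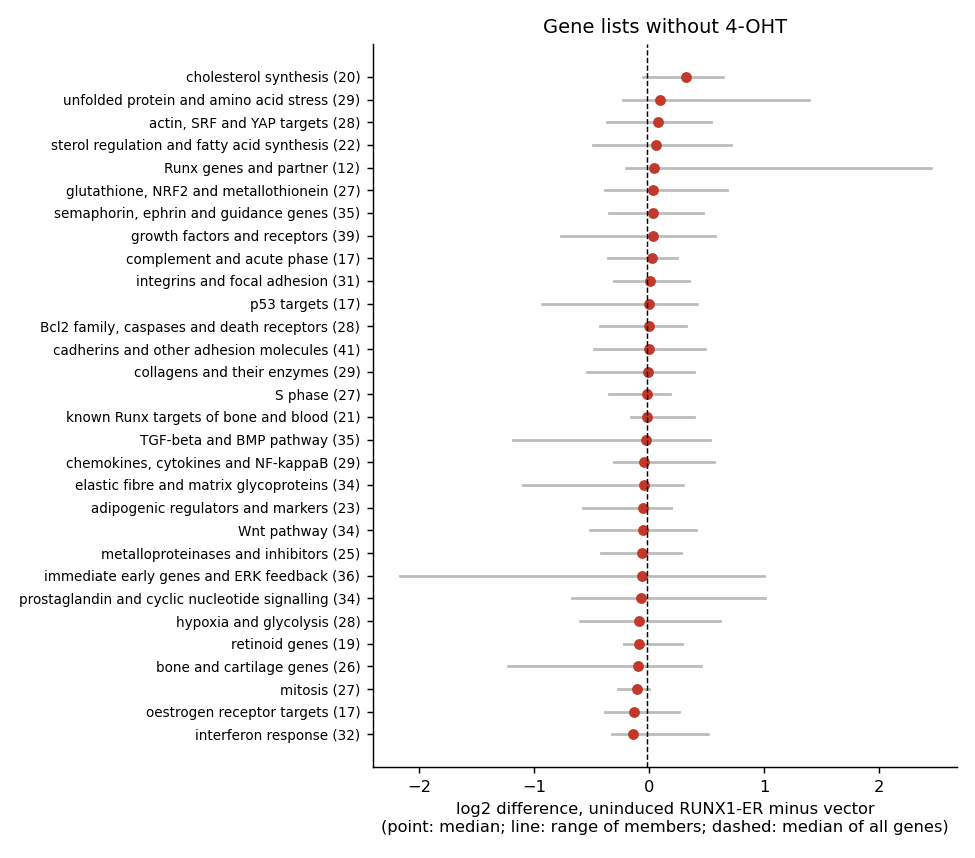
Median log2 difference, uninduced RUNX1-ER minus vector, of each of 30 gene lists (points), with the range of its members (lines), the number measured in brackets and the median of all genes as a dashed line. Cholesterol synthesis stands at 0.317 and the other lists lie between −0.137 and 0.0976. The lists were chosen with earlier results of these data known, among them that of cholesterol synthesis.

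Fold size alone singled out other genes. Over 18193 genes 10 differed by 2-fold or more at any p, of which Esr1, Phex and Id1 passed the test. Nr4a1, an immediate early nuclear receptor, read 7.48 and 7.29 in uninduced RUNX1-ER cells, against 10.39 and 8.71 in vector cells, a difference of −2.17 (adjusted p = 0.284). The groups did not overlap, but the 2 vector arrays were 1.68 log2 units apart. Egr2 and Egr1, zinc finger factors induced by growth signals, differed by −1.46 (adjusted p = 0.357) and −1.16 (adjusted p = 0.164), also with wide gaps between vector arrays. Of 36 immediate early and ERK feedback genes 0 passed the test (limma, 4 higher and 11 lower at an unadjusted p under 0.05). Over all genes 3.61% were higher and 4.34% lower at that unadjusted p. Upward, Chac1, which degrades glutathione, read 8.54 and 8.40 in uninduced RUNX1-ER cells, against 7.36 and 6.79 in vector cells, a difference of 1.39 (adjusted p = 0.063). Gdap10 differed by 1.25, the vasodilator peptide gene Adm by 1.01 and the matrix proteoglycan gene Aspn by −1.10, none past the test.

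With ligand more genes passed the test between the lines. In induced RUNX1-ER cells minus vector cells with 4-OHT, 757 genes passed the test (4.16%), 528 higher (2.9%) and 229 lower (1.26%), against 8 without ligand. The count with 4-OHT was 287 without induced replicate 1, 328 without induced replicate 2, 377 without replicate 2 of the vector cells with 4-OHT, and 160 with only the compared arrays. The SD over genes of the line difference was 0.226 with 4-OHT and 0.158 without it. In vector cells 4-OHT itself gave 0 genes past the test (limma, 1225 genes at an unadjusted p under 0.05, smallest adjusted p 0.298). The line difference with 4-OHT minus that without passed the test for 110 genes (0.605%), 89 upward (0.489%) and 21 downward (0.115%), and for 71 without induced replicate 2, 55 without vector replicate 1 and 66 without vector replicate 2. Of the 8 genes above, Id1 alone was among them.

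The 8 genes kept their direction with ligand, on arrays that the first comparison did not use, and all 8 differences were smaller. These genes were chosen for passing the test without ligand, which favours larger differences there. Their smaller differences with ligand are therefore no measure of an effect of ligand. Esr1 differed by 1.5 (adjusted p = 0.00433) and Phex by −1.0 (adjusted p = 0.0032) in induced RUNX1-ER cells minus vector cells with 4-OHT. These 2 passed both tests the same way, which is 25% of the 8 and 0.264% of the 757. Clba1 differed there by 0.40 (adjusted p = 0.0942), Mvd by 0.30 (0.105), Vash2 by 0.27 (0.233), Fnip2 by 0.23 (0.335) and Fam110b by 0.23 (0.259). Side by side, and on shared uninduced arrays, Fnip2 differed by −0.71 (adjusted p = 0.00554) and Vash2 by −0.60 (adjusted p = 0.0131) in induced minus uninduced RUNX1-ER cells. In the line expressing mouse Runx1 minus vector cells with 4-OHT, where 511 genes passed the test (2.81%; 354 higher, 1.95%, and 157 lower, 0.863%), 4 of the 8 had the same sign. Leaving out replicate 1 of the Runx1 line gave 253 genes in place of 511, leaving out its replicate 2 gave 182, and leaving out replicate 2 of the vector cells with 4-OHT gave 260. Id1 passed there in the same direction and Fam110b in the opposite one, by −0.42 (adjusted p = 0.0433).

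The genes named next were chosen for the size of the change in line difference with ligand, so their values without ligand are a description. Rdh10, a retinol dehydrogenase of retinoic acid synthesis, read 5.61 and 5.72 in uninduced RUNX1-ER cells, against 5.56 and 5.20 in vector cells, a difference of 0.28 (adjusted p = 0.554). In induced RUNX1-ER cells it read 7.92 and 7.86, against 4.81 and 4.61 in vector cells with 4-OHT, a rise of 3.18 (adjusted p = 1.89e-08). Pde8a, a cyclic AMP phosphodiesterase, differed by −0.14 without ligand (adjusted p = 0.805) and by 2.61 with it (adjusted p = 3.17e-08). Rdh10 did pass the test in uninduced RUNX1-ER cells when the vector arrays with 4-OHT served as the control, and in vector cells with 4-OHT minus those without it differed by −0.67 (adjusted p = 0.298). Akr1c14, an aldo-keto reductase, differed by 0.18 without ligand, Anxa8, an annexin, by −0.26, and Snai1, a repressor of E-cadherin, by −0.48, none past the test. Their differences with ligand were 3.08, 2.68 and 2.47 in that order.

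**Figure D5:**
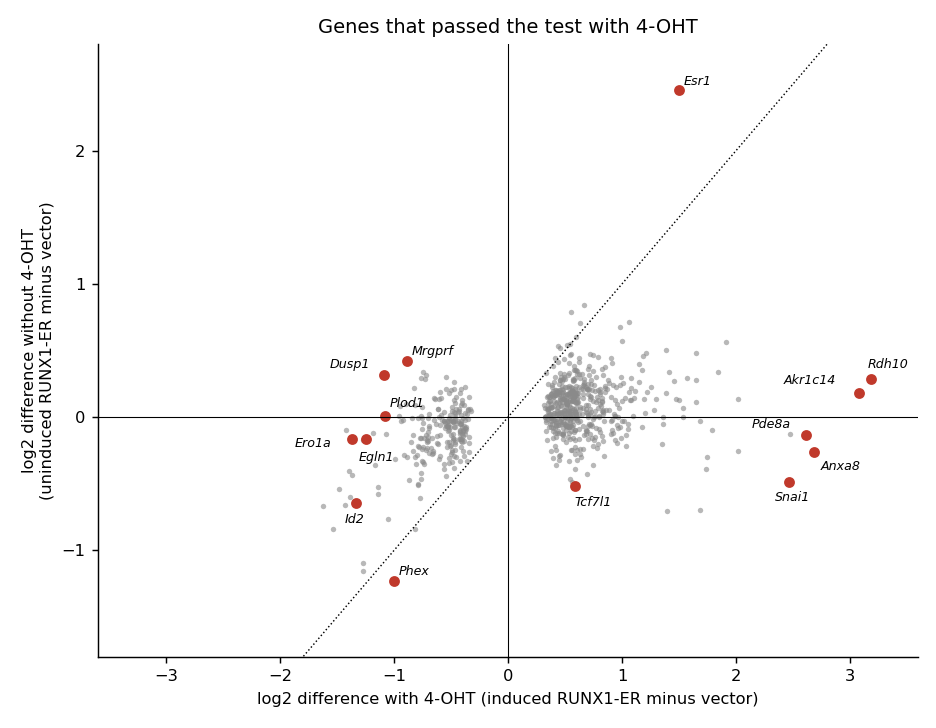
The 757 genes that passed the test in induced RUNX1-ER minus vector with 4-OHT, with that log2 difference on the horizontal axis and the log2 difference of uninduced RUNX1-ER minus vector on the vertical axis; the dotted line marks equality. Most points lie near the horizontal zero line, and Esr1 stands out at 1.5 with ligand and 2.45 without.

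Over all genes that passed the test between the lines with ligand, the values without ligand leaned slightly the same way. Of the 528 genes higher with 4-OHT, 356 (67.4%) were above 0 without it, against 43.9% of all genes, and their median was 0.574 with ligand and 0.0758 without. Of the 229 genes lower with 4-OHT, 171 (74.7%) were below 0 without it, against 56.1% of all genes, with medians of −0.543 and −0.103. At an unadjusted p under 0.05, 82 of the 528 (15.5%, against 3.61% of all genes) were higher without ligand and 24 were lower. Of the 229, 55 (24%, against 4.34% of all genes) were lower at that unadjusted p and 7 were higher. These genes were chosen for passing the test with ligand, which favours larger differences there. The sizes with and without ligand therefore cannot be weighed against each other. Single genes among them rarely passed the test without ligand. For the 354 genes higher in the line expressing mouse Runx1, 182 (51.4%, against 43.9% of all genes) were above 0 in uninduced cells, with a median of 0.00774. At an unadjusted p under 0.05, 38 of them (10.7%, against 3.61% of all genes) were higher in uninduced cells and 34 were lower. For the 157 genes lower in that line, 86 (54.8%, against 56.1% of all genes) were below 0 in uninduced cells, with a median of −0.0265. At that unadjusted p, 28 of the 157 (17.8%, against 4.34% of all genes) were lower in uninduced cells and 14 were higher. Both fusion-line comparisons used separate arrays of the same lines, so whatever else distinguishes these lines stands in both and cannot be told apart from the fusion.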

How the data were processed

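The authors deposited 1 table of log2 values for 45101 probe sets on 15 arrays, and the log2 scale was read from the range of the values. Per the labels' protocols, arrays were read with GCOS and normalized by Robust Multichip Average (RMA) with the Bioconductor module affy in the FunAlyse pipeline. The sources used here give no versions. RMA forces arrays to 1 distribution and shrinks dim differences, so folds of dim genes are understated and changes in the total amount of RNA cannot appear. No 2 arrays were identical.

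Of the probe sets 34945 had 1 gene symbol in the platform annotation, 932 several and 9160 none, and 64 controls were left out. Current symbols were looked up in RefSeq for 34741, and 0 changed. Each of 18193 genes was read on its brightest probe set, by the mean of the 15 arrays. Differences were tested in limma 3.58.1 (R 4.3.3, lmFit and eBayes) by a model that gave each of 8 groups a coefficient and used all 15 arrays (residual degrees of freedom 7, prior 5.65), two-sided, with Benjamini-Hochberg adjustment over all genes in each comparison and a threshold of 0.05. The steps were checked on simulated data. The number of arrays limits the precision.

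Named genes were up to 15 each way past the threshold without overlap of arrays, up to 4 past it in each list, the genes with the smallest p up to 5 in a direction with fewer, the Runx genes, Cbfb and Esr1, and the 5 largest changes each way between the line differences. Members of the cholesterol list were then described in full, and Id3, Id4 and the genes differing by 2-fold or more were chosen after their values were seen. The samples, lists and rules were chosen with earlier results of these data known, among them the Esr1 reading and the cholesterol synthesis list in uninduced cells. Alternatives changed the probe set rule, a filter on dim genes, centring, the arrays in the fit, the prior, the replicate block, the control arrays and single arrays.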

Additional observations from a re-analysis of the deposited data

Results flagged for a closer look

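These genes are listed because the difference between the fusion line and vector cells changed with ligand, by the test of the line difference with 4-OHT minus that without (limma adjusted p). All values are log2.

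Id1 changed by 1.03 (adjusted p = 0.0133), with −0.15 with ligand and −1.18 without, and Tcf7l1 changed by 1.10 (adjusted p = 0.000771), with 0.58 with ligand and −0.52 without. Upward changes were 2.95 for Snai1 (adjusted p = 3e-04), 2.94 for Anxa8 (0.000126), 2.90 for Akr1c14 (0.000637), 2.90 for Rdh10 (2.17e-06) and 2.75 for Pde8a (2.17e-06). For Rdh10 the vector cells with 4-OHT minus those without differed by −0.67 (adjusted p = 0.298).

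Downward changes were −1.41 for Dusp1, a MAP kinase phosphatase (adjusted p = 0.002), −1.31 for Mrgprf, an orphan receptor (0.00548), and −1.20 for Ero1a, an oxidase of the endoplasmic reticulum (0.0133). Plod1, a collagen lysyl hydroxylase, changed by −1.09 (0.0216) and Egln1, the oxygen sensor of the hypoxia pathway, by −1.08 (0.00319). None of these 5 passed the test without ligand, where they lay between −0.17 and 0.42. Leaving out single arrays changed the call of Id1 (adjusted p from 0.00635 to 0.0762), as it did those of Ero1a (0.0107 to 0.0762) and Plod1 (0.00268 to 0.126).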

How the results depend on the processing

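The count of 8 genes without ligand depended on the processing more than the differences did: no direction of the 8 genes reversed under any alternative. The count was 11 with the mean of a gene's probe sets (6 of the 8 kept), 32 over the 8048 genes with a mean above 5 (5 kept, fewer genes tested), 16 with arrays centred on their medians (8 kept), 96 with an intensity trend in the prior (8 kept) and 0 with only the 4 arrays of the comparison (1437 genes at an unadjusted p under 0.05). With the vector arrays that had 4-OHT as the control it was 43 (6 kept), and with all 4 vector arrays 58 (7 kept). Leaving out 1 array gave 0 to 4. With a mean of probe sets Esr1 differed by 0.81 (adjusted p = 0.021), Phex by −0.72 (0.0547) and Fam110b by 0.35 (0.321); with all 4 vector arrays Phex differed by −0.93 (0.0642). The median of the cholesterol list lay between 0.243 and 0.372 over all alternatives, with 0 to 9 members past the threshold. With only the compared arrays, the count with 4-OHT (757) was 160 and that of the Runx1 line (511) was 130; with an intensity trend the count with 4-OHT was 1209 and that of the change between line differences (110) was 319, which was 230 over genes with a mean above 5. Leaving out 1 array gave 287 to 726, 182 to 472 and 55 to 127 for these 3 in that order (4-OHT, Runx1 line, change). Cause was not tested except where fewer genes or arrays entered. Replicate numbers did not pair the arrays: deviations of equally numbered arrays correlated by −0.121 to 0.116 over 21 pairs of groups (−0.0346 for uninduced RUNX1-ER with vector). With the replicate block the counts were 10, 672, 102 and 482 for the comparison without ligand, with 4-OHT, the change and the Runx1 line, and among the 8 genes Fam110b missed the threshold (adjusted p = 0.0579). With 2 arrays a group, differences under about the replicate SD of 0.162 to 0.22 are not resolved singly, and many larger ones did not pass either. Among the 8 genes the smallest difference was 0.64 (Mvd), while Nr4a1 at −2.17 did not pass.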

Other observations

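The genes below were chosen by eye after their values were seen, and none passed the test in uninduced RUNX1-ER cells minus vector cells. Runx1t1 belongs to the list of Runx genes and partners, and the others belong to no list. Flcn, the folliculin partner of Fnip2, read 7.97 and 7.91 in uninduced RUNX1-ER cells, against 7.37 and 7.43 in vector cells, a difference of 0.55 (limma adjusted p = 0.169). Rragc, a Rag GTPase, differed by 0.49 (adjusted p = 0.107) and Atp6v1a, a subunit of the lysosomal proton pump, by 0.52 (adjusted p = 0.164). Aacs, acetoacetyl-CoA synthetase, which feeds sterol synthesis, differed by 0.61 (adjusted p = 0.0562). Runx1t1, known as ETO, the partner of RUNX1 in a leukaemia fusion, read 5.87 and 5.83 in uninduced RUNX1-ER cells, against 4.65 and 5.06 in vector cells, a difference of 1.00 (adjusted p = 0.063). Tnfsf9, the ligand of 4-1BB, differed by 0.93 (adjusted p = 0.0582). Both uninduced arrays lay above both vector arrays for each of these genes, as they did for 15.6% of all genes.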
